A study of Mus musculus with 2 samples.

Results

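Mir126a, the pair Mir221 and Mir222, and the related genes Mir130a, Mir130b, Mir301 and Mir301b are microRNA genes with known roles in endothelium and blood stem cells. These 7 genes were named for those roles, with earlier results of these data known. They were read from 2 small RNA libraries that counted 1973 microRNA genes. Both libraries came from liver of embryonic mice of the strain B6NCrl at day 13.5, with male and female embryos pooled. The labels number them as biological replicates 1 and 2 from separate biosamples and name no treatment and no genetic change. Both carry the same donor record, and whether the pools came from separate litters is not given, so an SD over the 2 measures only the spread between these libraries, part of which may be technical. There is 1 group, so no conditions were compared.

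A microRNA is cut from a hairpin in a longer transcript and pairs with target messenger RNAs mainly through its seed, bases 2 to 8 from the 5′ end. MicroRNAs with the same seed are expected to share many targets. miR-126 comes from the Egfl7 gene of endothelial cells, favours signalling by vascular growth factor and holds blood stem cells in quiescence. miR-221 and miR-222 repress Kit, the stem cell factor receptor of blood progenitors, and the cell cycle inhibitor p27. miR-130a represses the antiangiogenic homeobox genes Gax and Hoxa5 in endothelial cells. The liver of this age is a major site of blood formation and holds endothelium and blood progenitors beside immature hepatocytes.

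The mature sequences are shown to make the 3 seed groups visible, with the seed in capitals and the strand of the gene read 5′ to 3′. They are from RefSeq on GRCm38.p6, which listed a hairpin for all 7 genes and the mature 3p arm, the arm commonly taken as the main product, for 6 of them. The 3p entry of Mir301b is not in that table, and its hairpin is shown instead, with the same 7 letters AGUGCAA in capitals where they occur once.
miR-126a-3p: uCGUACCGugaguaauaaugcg
miR-221-3p: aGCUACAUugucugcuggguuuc
miR-222-3p: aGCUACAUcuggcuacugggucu
miR-130a-3p: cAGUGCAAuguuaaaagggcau
miR-130b-3p: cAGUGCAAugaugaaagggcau
miR-301a-3p (from Mir301): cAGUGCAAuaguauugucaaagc
Mir301b hairpin: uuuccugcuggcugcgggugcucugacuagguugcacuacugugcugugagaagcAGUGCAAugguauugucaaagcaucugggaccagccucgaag

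Counted from base 1 at the 5′ end, miR-130a-3p and miR-130b-3p agreed at 20 of 22 bases and differed by U11A and A13G, miR-130a given first. miR-130a-3p and miR-301a-3p were identical over their first 9 bases and agreed at 12 of 22. miR-221-3p and miR-222-3p shared their first 8 bases and agreed at 11 of 23. The seed of miR-126a-3p, CGUACCG, belonged to 1 of 1738 mature mouse entries in RefSeq, GCUACAU to 3 and AGUGCAA to 7. The first base was U in miR-126a-3p, A in the products of Mir221 and Mir222 and C in those of Mir130a, Mir130b and Mir301, and among all entries U, A and C began 41.3%, 25.5% and 20.4%.

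The genes lie at 5 places in the genome (mm10). Mir126a occupies chromosome 2 from 26591357 to 26591429 on the plus strand, within Egfl7, a gene for a secreted endothelial protein, where it is intronic except in an annotated retained-intron transcript. Mir130a, on the minus strand of chromosome 2 from 84741115 to 84741178, overlaps no other annotated gene. Mir130b (17124061 to 17124142) and Mir301b (17124400 to 17124496) are separated by 257 bases on the minus strand of chromosome 16, in an intron of the protein-coding gene 2610318N02Rik. Mir301 is in an intron of Ska2, a gene of chromosome segregation, on the plus strand of chromosome 11 from 87113004 to 87113089. Mir221 (19146294 to 19146388) and Mir222 (19146893 to 19146971) are 504 bases apart on the minus strand of the X chromosome and overlap no other annotated gene. In GENCODE M21, none of the 7 hairpins had a run of 20 bases in common with any of the 2202 microRNA genes at another place. The longest shared run was 17 bases, between Mir130a and Mir6389.

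All 7 genes had at least 10 counts in each library, the limit for detection, which 18.6% of the 1973 genes reached. Levels are in CPM, counts on the strand of the gene relative to the library total times 1000000, and the totals were 2607403 in replicate 1 and 4286742 in replicate 2. A read of a library selected for RNA below 30 bases can span a whole mature microRNA, so counts were not divided by hairpin length. The order of the 7 genes was the same per 100 bases of hairpin. Ligation of adapters favours some sequences over others, so ratios between genes also carry that bias, which was not tested. The 2 arms of a hairpin are summed in a gene's count. In this bulk tissue, fewer cells of a type and less RNA per cell cannot be told apart, and no value here assigns a gene to endothelium or to blood.

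The levels of the 7 genes spanned a wide range, from Mir126a down to Mir301b. Mir126a had 149932 counts in replicate 1 and 233821 in replicate 2, or 57502 and 54545 CPM (mean 56024 ± 2091, SD, n = 2). It thus held 5.75% of all counts in replicate 1 (95% Wilson interval 5.72% to 5.78%) and 5.45% in replicate 2 (5.43% to 5.48%). It took place 2 of 1973 genes in both libraries, below the hepatocyte microRNA Mir122, which was 1.39-fold higher in replicate 1 and 1.47-fold higher in replicate 2. Mir126a exceeded Mir301b by 1239-fold in replicate 1 and 970-fold in replicate 2. Multimapped reads, 36.7% of replicate 1 and 32.0% of replicate 2, are in no gene count. Genes with copies elsewhere can thus stand too low, while none of the 7 shares a run of 20 bases with a microRNA gene annotated at another place. The rest of the genome was not searched for such runs, so reads of the 7 genes lost to multimapping were not measured. The place and share of Mir126a therefore hold only for reads that map to 1 place.

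Mir130a, the most abundant of the AGUGCAA group, had 51055 and 91804 counts, or 19581 and 21416 CPM (mean 20498 ± 1298, SD, n = 2). Mir130b had 15958 and 26711 counts, or 6120 and 6231 CPM (mean 6176 ± 78.4). Their products differ at 2 bases outside the seed, and Mir130a was the higher gene in both libraries, by 3.20-fold and 3.44-fold. Mir301, whose product shares the seed but less of the 3′ part, had 1501 and 3219 counts, or 576 and 751 CPM (mean 663 ± 124). Mir301b, the lowest of the 7, had 121 and 241 counts. That is 46.4 CPM in replicate 1 (95% counting interval 38.5 to 55.4) and 56.2 CPM in replicate 2 (49.3 to 63.8), intervals that overlap.

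The X-linked pair stood between Mir301 and Mir301b. Mir221 had 1149 and 1864 counts, or 441 and 435 CPM (mean 438 ± 4.13, SD, n = 2). Mir222 had 693 and 1082 counts, or 266 and 252 CPM (mean 259 ± 9.46). The smallest steps in the order were Mir301 over Mir221, 1.31-fold in replicate 1 and 1.73-fold in replicate 2, and Mir221 over Mir222, 1.66-fold and 1.72-fold. For each of the 6 neighbouring steps in the order, the lower of the 2 values of the higher gene was above the higher of the 2 values of the next. With 2 libraries the smallest two-sided exact p is 0.5, and these steps carry none.

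**Figure D1:**
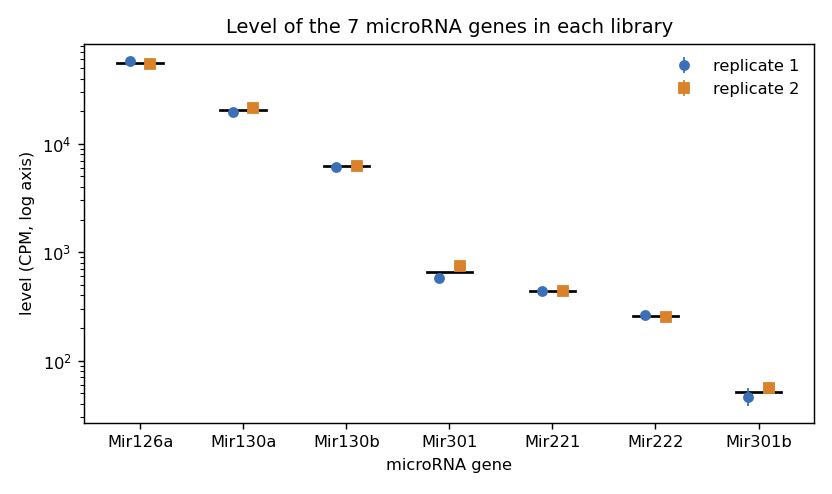
Level of each gene in CPM on a log axis, with circles for replicate 1, squares for replicate 2, a black line for the mean of both and bars for 95% counting intervals, mostly smaller than the symbols. Mir126a is highest at 57502 and 54545 CPM and Mir301b lowest at 46.4 and 56.2 CPM, and no ranges of neighbouring genes overlap.

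Summed by the seed of the 3p arm, the groups of genes differed in level and in how evenly their members contributed. Both arms are in these counts, and the listed 5p arms have other seeds, while no 5p arm was listed for Mir126a or Mir222. The sums can therefore also hold reads without the seed. Mir126a, alone with its seed, held 5.60% ± 0.209 of counts (SD, n = 2), the 4 AGUGCAA genes (Mir301b among them by name) 2.74% ± 0.151 and Mir221 with Mir222 0.0697% ± 0.00136. Mir126a exceeded the AGUGCAA sum by 2.18-fold in replicate 1 and 1.92-fold in replicate 2. The AGUGCAA sum exceeded that of Mir221 and Mir222 by 37.3-fold and 41.4-fold. All 7 together held 8.45% and 8.37% of counts.

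Within the AGUGCAA group, Mir130a made up 74.4% of counts in replicate 1 and 75.3% in replicate 2. Mir130b made up 23.3% and 21.9%, Mir301 2.19% and 2.64%, and Mir301b 0.176% and 0.198%. Nearly all reads of the AGUGCAA group thus came from the 2 genes whose products differ by U11A and A13G. Other mouse genes with these seeds added no counts: Mir130c, Mir6341 and Mir6389 (AGUGCAA) and Mir1928 (GCUACAU) had 0 counts in both libraries. A count of 0 allows up to 3 counts, or 1.15 CPM in replicate 1 and 0.700 CPM in replicate 2, for reads that map to 1 place. Mir721, which also has the seed AGUGCAA, was not analysed here.

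The 2 pairs of close neighbours were compared because genes so near each other can be cut from 1 primary transcript. Mir221 and Mir222 had similar counts: Mir222 made up 37.6% of the pair in replicate 1 (95% exact binomial interval 35.4% to 39.9%) and 36.7% in replicate 2 (35.0% to 38.5%). The log2 ratio of Mir222 to Mir221 was -0.73 and -0.78 (mean -0.76 ± 0.04, SD, n = 2). Mir130b and Mir301b were far apart in level although only 257 bases separate them. Mir130b exceeded Mir301b by 132-fold in replicate 1 and 111-fold in replicate 2, a log2 ratio of 7.04 and 6.79 (mean 6.92 ± 0.18). They were set beside 114 pairs of neighbouring detected genes within 10 kb on the same strand, with a median absolute log2 ratio of 3.30. Of these, 15 pairs were closer in level than Mir221 and Mir222, and 102 were closer than Mir130b and Mir301b. Some of the 114 pairs hold genes with copies elsewhere, such as Mir27a with Mir24-2 and Mir181a-2 with Mir181b-2. Multimapped reads are in no gene count, so such genes can stand too low and the ratios of their pairs can be shifted. These pairs were not left out, so the median and the counts of 15 and 102 are not a like-for-like background. Between the libraries the ratio moved by 0.06 in log2 for Mir221 and Mir222 and by 0.25 for Mir130b and Mir301b, against a median of 0.23 over the 114 pairs.

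**Figure D2:**
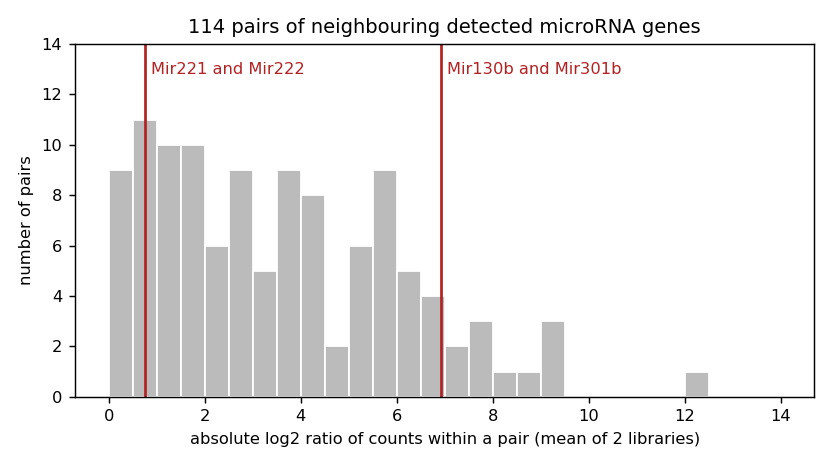
Histogram of the absolute log2 ratio of counts within 114 pairs of neighbouring detected microRNA genes, averaged over both libraries, with the number of pairs on the vertical axis. Red lines mark Mir221 and Mir222 at 0.76, near the low end, and Mir130b and Mir301b at 6.92, above the median of 3.30. Pairs that hold a gene with copies elsewhere are included.

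The paralogous genes Mir301 and Mir301b, which lie on different chromosomes, were also unequal. Mir301 made up 92.5% of the counts of both in replicate 1 (exact binomial interval 91.2% to 93.8%) and 93.0% in replicate 2 (92.1% to 93.9%). The log2 ratio was 3.63 and 3.74 (mean 3.69 ± 0.08, SD, n = 2). Their listed 5p arms, miR-301a-5p and miR-301b-5p, agreed at 19 of 22 bases, and the longest run shared by the hairpins was 16 bases. On the 3p side they are closer: the Mir301b hairpin holds the sequence of miR-301a-3p except for a single letter soon after AGUGCAA. The aligner is not given, so how reads with a mismatch were assigned between these genes is not known. Multimapped reads, 36.7% of replicate 1 and 32.0% of replicate 2, are in no gene count, so a short read common to both genes would be missing from both.

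Against all detected genes, the members ranged from place 2 (Mir126a) over 13 (Mir130a), 43 (Mir130b), 116 (Mir301), 128 (Mir221) and 153 (Mir222) to 228 (Mir301b) of 367. The genes nearest in level, those directly above and below in the order of mean CPM, were taken as most alike over the 2 libraries. For Mir126a these were Mir122 at 79994 ± 213 CPM and Mir17, of a growth-promoting cluster, at 49109 ± 6186 CPM, and both kept their place relative to Mir126a in each library. For Mir221 they were Mir676 at 502 ± 45.5 CPM and Mir410 at 433 ± 10.3 CPM, again in the same order in each library. The other 5 members changed order with both of their neighbours between the libraries. These neighbours were Mir487b and Mirlet7i for Mir130a, Mir16-1 and Mir144 for Mir130b, Mir421 and Mir203 for Mir301, Mir92-2 and Mir499 for Mir222, and Mir219a-1 and Mir3061 for Mir301b. The exact places of those 5 members are therefore not firm, and Mir221 stood at 130 and 129 in the single libraries.

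**Figure D3:**
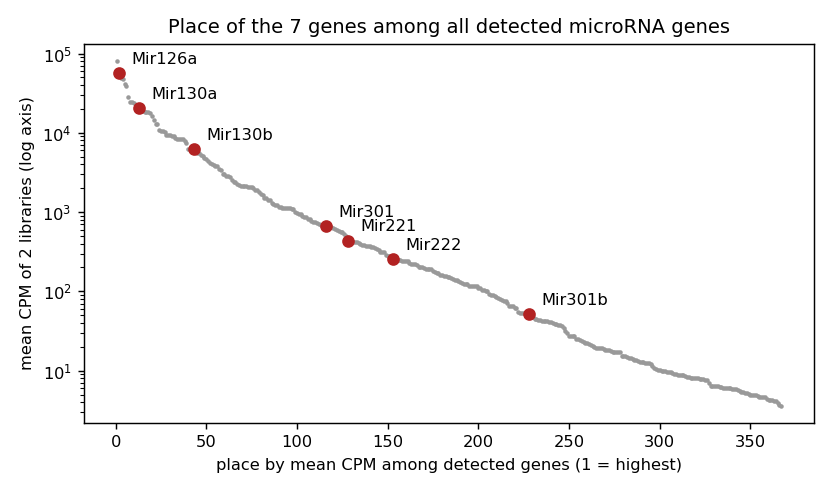
Mean CPM of the 2 libraries on a log axis against place among the 367 detected genes, with grey points for all genes and red circles for the 7 named genes. Mir126a, Mir130a and Mir130b lie among the first 43 places and the other 4 genes between places 116 and 228.

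The replicates were then compared for each gene by an exact binomial test on how its reads divided between them, adjusted by Benjamini-Hochberg over all 711 genes with a count. This test compares 2 libraries, not conditions, and with many counts it calls small differences. At an adjusted p under 0.05, 3 of the 7 genes were called, 2 higher and 1 lower in replicate 2. Over all genes with a count 20.1% were called (8.58% higher and 11.5% lower), over the detected genes 37.6% (16.3% higher and 21.3% lower), and over the 228 detected genes at least as abundant as Mir301b 53.9%. The median absolute log2 difference was 0.08 for the 7 genes and 0.17 for all detected genes. None of the 7 differed by 1.5-fold, against 13.1% of detected genes. The detected genes had a lower median level, 150 CPM against 663 CPM for the 7, and counting error is larger at low counts. The median differences and the 1.5-fold shares are therefore not matched for level.

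Mir301 had the largest difference of the 7: its log2 difference was 0.38 in favour of replicate 2 (counting interval 0.29 to 0.47 at 95%), or 1.30-fold (adjusted p = 1.14e-16, exact binomial test). Mir130a was higher by 0.13 (0.11 to 0.14), or 1.09-fold (adjusted p = 4.79e-58, exact test). Mir126a fell by 0.08 in log2, to a level 1.05-fold lower in replicate 2 (adjusted p = 1.57e-55, exact test), and by less with other library sizes, at -0.046 (TMM) and -0.049 (DESeq2), where it was still called. Mir301 and Mir130a thus stood higher and Mir126a lower in replicate 2, each by at most 1.30-fold, in libraries that the labels describe alike. Mir130b (0.026, interval -0.0025 to 0.054, adjusted p = 0.224) was not called in this exact test, but was called with edgeR's TMM library sizes, at 0.057 (adjusted p = 0.000763). Mir301b (0.28, interval -0.04 to 0.60), Mir222 (-0.07, interval -0.21 to 0.07) and Mir221 (-0.02, interval -0.13 to 0.09) were not called. The low count of Mir301b leaves room for a difference as large as that of Mir301.

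**Figure D4:**
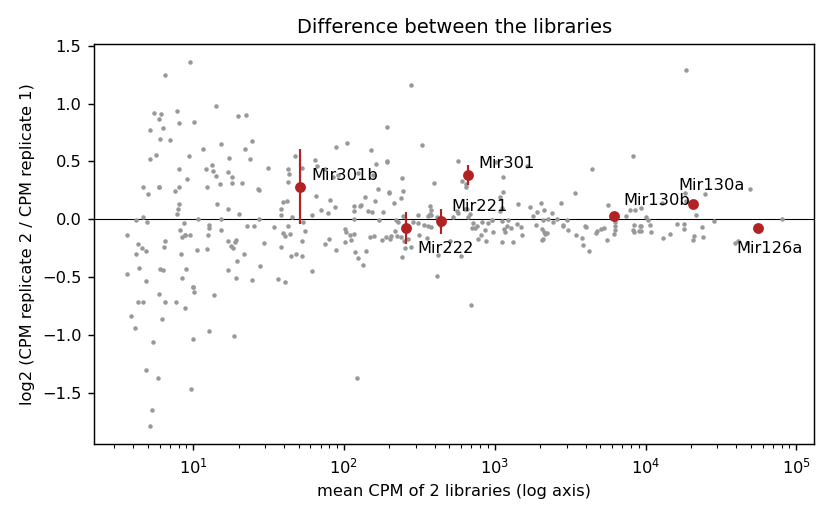
Log2 ratio of CPM in replicate 2 to CPM in replicate 1 against mean CPM on a log axis, with grey points for the 367 detected genes and red circles for the 7 named genes, whose bars are 95% counting intervals. Mir301 sits at 0.38, Mir130a at 0.13 and Mir126a at -0.08, each with an interval that leaves out 0.

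Markers of the cell types of this tissue were read beside these differences. The hepatocyte list (Mir122, Mir192, Mir194-2) held 8.35% of counts in replicate 1 and 8.43% in replicate 2. This sum rests mainly on Mir122, which was not called, while Mir192 (2634 and 2909 CPM) and Mir194-2 (1036 and 1219 CPM) were called higher in replicate 2. The count of Mir194-2 is uncertain, since its hairpin shares a run of 20 bases with Mir194-1. The erythroid list (Mir451a, Mir144, Mir486) held 1.80% and 3.30%. The rise of this sum rests on Mir451a alone, which was called higher. Mir144 (6405 and 5873 CPM) was called lower and Mir486 (834 and 820 CPM) was not called. The myeloid marker Mir223 held 1.00% and 1.02%, and the mesenchymal list (Mir143, Mir145a, Mir214) 2.08% and 1.99%, with Mir214 called higher, Mir143 lower and the myeloid marker not called. Of the 10 genes in these 4 lists, 6 were thus called, beside 37.6% of detected genes and 53.9% of those at least as abundant as Mir301b. Mir451a, the abundant microRNA of maturing red cells, stood at 10750 CPM in replicate 1 and 26342 CPM in replicate 2. It was higher in the same library as Mir301 and Mir130a, as were Mir192, Mir194-2 and Mir214, and the part of these cell types in the differences was not tested. The striated muscle marker Mir206 held 871 and 522 CPM. The neural markers Mir124a-1 and Mir9-2 had 0 counts and the muscle marker Mir1a-1 had 1 and 0, but all 3 share a run of 20 bases with genes elsewhere and multimapped reads are not counted, so these values say nothing of those cell types.

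The other microRNAs linked to endothelium that were counted lay below Mir126a. Of 18 listed, 16 were counted and all 16 were detected, with a median of 788 CPM and a range from 117 to 28333 CPM. Mir322 (28333 ± 252 CPM, SD, n = 2), of a hypoxia-responsive cluster, was the only listed gene above Mir130a, and Mir143 (18031 ± 716), Mir23a (12960 ± 1055) and Mir92-1 (8365 ± 442) came next. Of the 16, 10 exceeded Mir221 and 4 lay below Mir222. Between the libraries, 1 of 16 was called higher and 7 lower in replicate 2, beside 16.3% higher and 21.3% lower among detected genes and 53.9% called in either direction among those at least as abundant as Mir301b. Mir143 is at least as well known from smooth muscle. The counts of 6 of the 16 (Mir23a, Mir23b, Mir27a, Mir27b, Mir24-2 and Mir92-1) are uncertain, since their hairpins share a run of 20 bases with a gene elsewhere, and 2 of these are among the 4 below Mir222. Mir126b and Mir24-1 were not analysed here.

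Among other microRNAs of blood stem and progenitor cells and their progeny, 17 of 19 listed were counted and all 17 were detected, with a median of 972 CPM and a range from 27.6 to 24161 CPM. By the mean of both libraries, Mir99a, of a stem cell cluster, led at 24161 ± 1868 CPM (SD, n = 2). It was the only one whose mean exceeded that of Mir130a. Next by mean came Mir451a (18546 ± 11026), Mir223 (10092 ± 100.3) and Mir99b (9201 ± 247). In replicate 2, however, Mir451a (26342 CPM) stood above both Mir99a (22840 CPM) and Mir130a (21416 CPM). Again 10 exceeded Mir221, while 7 lay below Mir222 and 1, Mir150 of mature lymphocytes, below Mir301b at 27.6 ± 5.41 CPM. In this list 3 of 17 were called higher and 7 lower in replicate 2, beside 16.3% higher and 21.3% lower among detected genes. Taken in either direction, the calls were near the 53.9% among genes at least as abundant as Mir301b. Counts are uncertain in the same way for Mir125b-1, Mir125b-2, Mir146, Mir181a-1 and Mir181a-2, of which 4 are among the 7 below Mir222. The lists share Mir155 and were not calibrated to cells. Mirlet7e and Mir142 were not analysed here.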

How the data were processed

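The authors deposited raw read counts per microRNA gene for each of the 2 libraries, in 3 columns: both strands, the strand of the gene and the opposite strand. Per the labels and the deposited file lists, RNA was selected below 30 bases and counted on mm10 with GENCODE M4, while aligner and counter are not given in the sources used. The gene-strand column was used. Of 7671547 reads in replicate 1 and 12554684 in replicate 2, rows for unmapped (19.6% and 24.2%), multimapped (36.7% and 32.0%) and unassigned reads were left out. Names and positions came from GENCODE M21 on the same build, matching 1894 of 1973 identifiers, and sequences from RefSeq (GRCm38.p6).

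Levels are CPM, mean ± SD. The libraries were compared by two-sided exact binomial tests (scipy 1.17.1, Python 3.11.15). The test was tried on simulated data with counting error alone, which cannot show how it behaves between real replicates. edgeR 4.0.16 (TMM) and DESeq2 1.42.0 gave alternative library sizes. Without molecular identifiers, intervals and limits describe counting error alone. The 7 genes and the lists were chosen with earlier results of these data known. The genes named were the 7, the detected genes next to each by mean CPM, and up to 4 leading genes per list. Mir24-1, Mir126b, Mir142, Mirlet7e and Mir721 were not analysed here.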

Additional observations from a re-analysis of the deposited data

Results flagged for a closer look

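Reads on the strand opposite the gene were outside the counts used for levels, and for 2 of the 7 genes they exceeded the 3 counts that a count of 0 allows in both libraries. Opposite Mir126a there were 37 reads in replicate 1 and 76 in replicate 2, or 0.0247% and 0.0325% of all reads at that locus. GENCODE M21 annotates Mir126b on that strand within the Mir126a hairpin. Opposite Mir130a there were 61 and 67 reads, or 0.119% and 0.0729%, and M21 annotates no gene on that strand there. The other 5 genes had 0 opposite-strand reads in both libraries. Among all 367 detected genes, 12 had more than 3 opposite-strand reads in each library and 324 had none.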

How the results depend on the processing

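All 7 genes were detected at limits of 1, 10 and 50 counts and with both strands, and their order was the same with both strands, per hairpin length and in each library alone. With counts from both strands the sum of the 7 levels went from 84109 to 75357 CPM, and the shares became 5.02% (Mir126a), 2.45% (the AGUGCAA genes) and 0.0624% (Mir221 with Mir222), because the total includes reads opposite other genes. Scaled to all reads of the library, unmapped and multimapped ones included, the sum was 28652.5 CPM, since the total is larger. TMM and DESeq2 scaling moved no level by more than 1.00146-fold. Leaving out each library in turn, the sum ran from 83686 to 84532 CPM. The log2 ratios ran from -0.78 to -0.73 (Mir222 over Mir221), 6.79 to 7.04 (Mir130b over Mir301b), 1.68 to 1.78 (Mir130a over Mir130b) and 3.63 to 3.74 (Mir301 over Mir301b). The difference of Mir221 between the libraries turned from -0.019 to 0.011 with TMM and 0.0080 with DESeq2 sizes, and it was not called in any setting. That of Mir126a went from -0.076 to -0.046 with TMM and -0.049 with DESeq2 sizes and was called in each. Mir130b was called at 0.057 with TMM and 0.053 with DESeq2 sizes (adjusted p = 0.000763 and 0.00184, exact binomial test), so that 4 of the 7 genes were called in place of 3. The number of genes called over the whole table lay between 135 and 153. No paired analysis was possible because only 1 group exists.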
